A study of Mus musculus with 6 samples.

Results

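The genes described here encode 10 proteins that fold others inside the endoplasmic reticulum, as chaperones, co-chaperones or enzymes: Creld2, Dnajb11, Manf, Hyou1, Hspa5, Hsp90b1, Pdia4, Pdia6, Sdf2l1 and Calr. They were taken by name, as genes known to be driven by the stress factors ATF6 and XBP1, out of 20416 genes with a value. The choice was made with earlier results of these data known. They were read by 126 of the 212097 probe sets that the platform annotation assigns to 1 gene symbol. Primary hepatocytes came from adult C57BL/6 mice of 2 groups with 3 samples each. The miR-143DOX mice carried an inducible miR-143 allele that doxycycline switches on, and the control mice were wildtype littermates. Both groups were given doxycycline at 4 mg/ml with 10% sucrose to drink for 8 days, so the controls received the drug and the sugar too. The promoter and the cells in which the transgene was active are not given in the sources used here, and RNA of each sample was read on 1 Affymetrix array. The labels call the samples biological replicates and do not say whether each came from 1 mouse. The question is which hepatocyte transcripts differ when the microRNA is induced.

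Proteins that a cell secretes are threaded into the endoplasmic reticulum, where chaperones hold them while disulfide bonds form and sugars are trimmed. Hepatocytes secrete most plasma proteins and keep a large folding machinery. When unfolded proteins accumulate, the sensors ATF6, IRE1 and PERK start the unfolded protein response, in which cleaved ATF6 and spliced XBP1 switch on chaperone genes. One of the DNA elements they use is the ER stress element (ERSE), bound together with the factor NF-Y.

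The promoters of the genes are shown first, because they can be read for the ERSE. RefSeq promoter windows (build GRCm38.p6), from 250 bases before to 50 bases after the annotated gene start, were at hand for 8 of the 10 genes, and Manf and Hyou1 had none. The ERSE was searched on both strands as CCAAT, 9 bases of any kind, then CCACG. It was found in 5 of the 8 windows, those of Hspa5, Hsp90b1, Calr, Creld2 and Pdia6, against 39 of all 32851 windows (0.119%). The genes were chosen as driven by ATF6 and XBP1, which use this element. A high share therefore follows from the choice and is no separate result. Capitals mark the element, each sequence runs 5′ to 3′ in the direction of its gene, and CGTGG followed by ATTGG is the element on the opposite strand. Stretches below are Hspa5 at chr2:34771840-34772089 (plus strand), Hsp90b1 at chr10:86705513-86705676 (minus strand), Calr at chr8:84847055-84847113 (minus strand), Creld2 at chr15:88819500-88819558 (plus strand) and Pdia6 at chr12:17266471-17266529 (plus strand).
Hspa5: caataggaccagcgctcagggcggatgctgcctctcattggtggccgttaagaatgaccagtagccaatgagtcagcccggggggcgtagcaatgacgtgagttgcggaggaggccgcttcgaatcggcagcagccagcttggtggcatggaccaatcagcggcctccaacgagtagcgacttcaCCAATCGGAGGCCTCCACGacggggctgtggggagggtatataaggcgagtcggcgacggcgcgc
Hsp90b1: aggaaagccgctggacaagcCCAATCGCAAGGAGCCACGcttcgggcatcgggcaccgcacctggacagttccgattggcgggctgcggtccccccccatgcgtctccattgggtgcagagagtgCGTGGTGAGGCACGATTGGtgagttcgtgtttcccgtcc
Calr: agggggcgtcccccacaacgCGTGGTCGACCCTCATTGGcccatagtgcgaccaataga
Creld2: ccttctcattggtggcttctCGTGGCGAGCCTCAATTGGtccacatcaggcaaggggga
Pdia6: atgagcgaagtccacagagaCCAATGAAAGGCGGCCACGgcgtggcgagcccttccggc

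Counted from the gene start, the element of Hspa5 began at -65, and Hsp90b1 held 2 copies that began at -212 and -107. The copies in Calr, Creld2 and Pdia6 began at -162, -126 and -98. Pdia4 held the element without its last G, a looser form that also covers every full ERSE and was found in 6 of the 8 windows and in 0.365% of all windows. It is printed below from chr6:47813582-47813639 (minus strand). Dnajb11 held the related ERSE-II, searched as ATTGG, 1 base of any kind, then CCACG, and found in 0.0365% of all windows. It lay 8 to 18 bases into the gene, at chr16:22857852-22857862 (plus strand). In the Sdf2l1 window these 3 patterns did not occur, which says only that these letters are not in that window. A match describes the sequence and is no measurement of binding.
Pdia4: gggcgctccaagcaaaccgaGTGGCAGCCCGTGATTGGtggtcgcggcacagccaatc
Dnajb11: ATTGGCCCACG

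**Figure D1:**
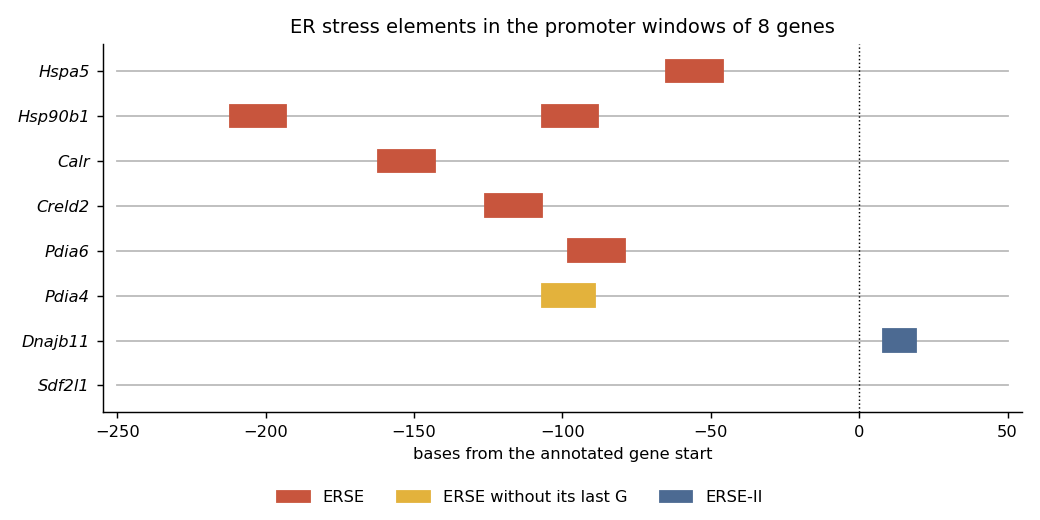
Position of each ER stress element (coloured boxes) relative to the annotated gene start (dotted line at 0), in bases, for the 8 genes with a RefSeq promoter window; each grey line is 1 window. Hsp90b1 has 2 full elements, Pdia4 the form without its last G, Dnajb11 an ERSE-II after the start, and Sdf2l1 none of these patterns.

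Among the same windows, Canx and Dnajc3 were the 2 of 25 matched genes on a wider list of folding genes with a full ERSE, and Syvn1 and Derl3 the 2 of 12 on a list of degradation genes. The 15 matched genes on a list of heat shock chaperones had none. The looser form without the last G was in 3 of 34 windows of the folding list, with Pdia3 added. It was in 4 of 13 windows of the degradation list, with Herpud1 and Derl2 added, against 0.365% of all windows. Herpud1 held an ERSE-II as well. Windows of heat shock chaperones, of translocation genes and of stress sensors and factors held none of these patterns.

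The arrays were comparable in outline. Pearson correlations between arrays, across probe sets, ran from 0.936 to 0.954, and no columns beyond the 6 arrays were present. Albumin, the defining hepatocyte product, lay at log2 14.1 to 14.5 on all 6 arrays, near the top of the range of values (15.2). Osbpl8, a gene reported as a miR-143 target, differed by 0.01 in RNA signal between the groups (standard error 0.22), and its protein was not measured. No probe set named miR-143 alone, so its induction could not be checked here. Values are log2 of array signal, averaged over the probe sets of a gene after quantile normalization. A value of 1 gene cannot be compared with that of another on this scale, so each gene is compared only with itself.

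All 10 genes lay lower on average in miR-143DOX than in control hepatocytes, by 0.05 to 0.59 on the log2 scale with a median difference of -0.36. None passed a 5% false discovery rate (FDR) in limma's moderated test over the 15312 genes tested, in which 0% of genes passed (257 lower and 212 higher at an unadjusted p under 0.05). The adjusted p of each of the 10 was 0.9997. At an unadjusted p under 0.05, 5 of the 10 lay lower, against 1.68% of all genes tested, and 10 of 10 had a difference below 0, against 47.6%. In 3 of the 10, each miR-143DOX sample was below each control sample, against 3.73% of all genes. The 10 genes were chosen with earlier results of these data known, so these counts describe them and are no test of them as a group. They share the same 6 arrays and vary together, so they are not independent of one another. In whole preparations, fewer cells of a type and less RNA per cell cannot be told apart. One control array, replicate 3, carried the highest value of 9 of the 10 genes, against 15.1% of all genes tested. Its weight is given beside the results below.

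Hspa5 encodes BiP, the Hsp70 of the endoplasmic reticulum and the regulator that holds the stress sensors inactive. It measured 11.13, 11.30 and 11.66 in the control samples and 11.17, 10.76 and 10.99 in the miR-143DOX samples. The groups overlapped, since 1 miR-143DOX sample stood above the lowest control. The difference was -0.39 (95% interval -0.76 to -0.02; unadjusted p = 0.0394; adjusted p = 0.9997, limma), a control level 1.31-fold higher, and it was -0.24 without control replicate 3. Hsp90b1, the Hsp90 of the compartment, also called endoplasmin, measured 11.69, 12.11 and 12.48 in control and 11.85, 11.83 and 12.04 in miR-143DOX. Its control samples spanned the whole range of the other group on both sides. The difference of -0.19 (95% interval -0.59 to 0.22) became 0.0084 without control replicate 3 and 0.073 with the brightest probe set alone.

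Hyou1 encodes an Hsp110-like chaperone that exchanges nucleotide on BiP. It measured 10.07, 9.81 and 10.59 in control and 9.58, 9.48 and 9.83 in miR-143DOX. Here 1 miR-143DOX sample stood just above the lowest control. The difference was -0.53 (standard error 0.19; unadjusted p = 0.0181; adjusted p = 0.9997, limma) and -0.31 without control replicate 3. Dnajb11, an Hsp40 co-chaperone that delivers unfolded clients to BiP, measured 9.20, 9.20 and 9.83 in control and 8.84, 8.75 and 9.05 in miR-143DOX. The groups were separate. Its difference was -0.53 (standard error 0.18; unadjusted p = 0.0131; adjusted p = 0.9997, limma), equal to a 1.45-fold higher control level, and -0.32 without control replicate 3.

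Sdf2l1, a partner of Dnajb11 in the same co-chaperone complex, had the difference nearest 0. It measured 7.64, 7.20 and 7.31 in control and 6.93, 7.57 and 7.49 in miR-143DOX. Its highest array was control replicate 1 and its lowest miR-143DOX replicate 1. The groups overlapped, since miR-143DOX replicates 2 and 3 stood above control replicates 2 and 3. The difference was -0.05 (95% interval -0.46 to 0.35), an interval that also holds the median of the 10 genes. With 4 probe sets it was also the most thinly measured of the 10. Of these, the brightest stood at -0.41, the others below 0 at -0.24 and -0.08, and the dimmest, at a mean of log2 4.88, at 0.50. With the median over the probe sets in place of their mean, the difference was -0.16. The difference over the mean turned to 0.14 without miR-143DOX replicate 1 and to 0.07 without control replicate 1.

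Creld2 and Manf encode small stress-induced proteins of the compartment, of which Manf binds BiP and can be secreted. Creld2 measured 8.59, 8.58 and 9.20 in control and 8.46, 7.99 and 8.16 in miR-143DOX. Manf measured 8.54, 8.59 and 9.01 in control and 8.44, 8.10 and 8.20 in miR-143DOX. Both genes were separate between the groups, by a gap that was narrow on the side of miR-143DOX replicate 1. Creld2 had the largest difference of the 10, at -0.59 (standard error 0.19; unadjusted p = 0.00927; adjusted p = 0.9997, limma), a 1.5-fold higher control level. Manf differed by -0.46 (95% interval -0.82 to -0.11; unadjusted p = 0.0147). Without control replicate 3 the differences were -0.38 and -0.32, and of the 10 genes Creld2 alone then stayed at an unadjusted p under 0.05 in limma. With the median over its probe sets in place of their mean, Manf stood at -0.75.

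**Figure D2:**
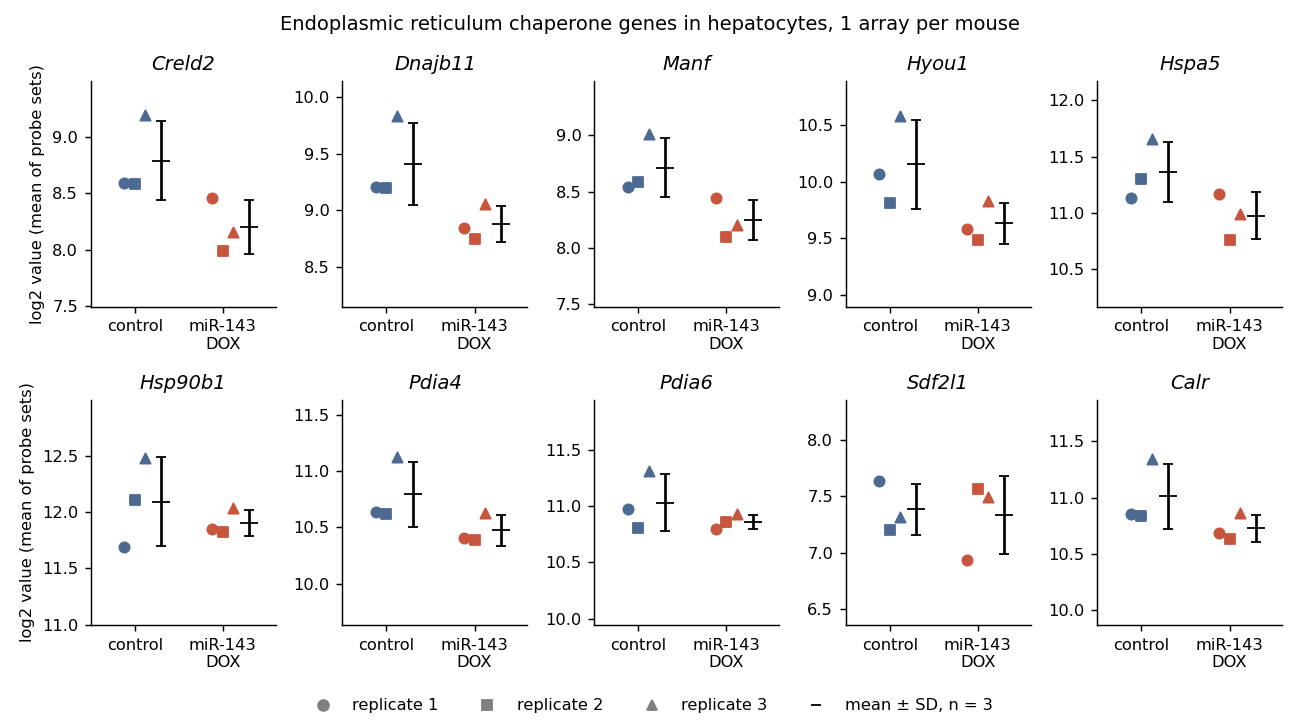
Log2 value of each of the 10 genes (mean of its probe sets) on the 3 control arrays (blue) and the 3 miR-143DOX arrays (red), with the replicate number as the marker shape and mean ± SD (n = 3) as black bars; each panel spans 2 log2 units. Creld2, Dnajb11 and Manf are separate between the groups, control replicate 3 (blue triangle) is the highest point in 9 panels, and Sdf2l1 has its highest point in control replicate 1. The title gives 1 array per mouse, which the labels do not state.

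Pdia4 and Pdia6 encode disulfide isomerases, which make and shuffle the disulfide bonds of secreted proteins. Pdia4 measured 10.64, 10.62 and 11.13 in control and 10.40, 10.39 and 10.63 in miR-143DOX. The highest miR-143DOX sample lay between the lower pair of controls, so the overlap was small. Its difference of -0.32 (95% interval -0.68 to 0.03) was -0.16 without control replicate 3. Pdia6 measured 10.97, 10.81 and 11.31 in control and 10.80, 10.86 and 10.93 in miR-143DOX. Apart from control replicate 3 the arrays of Pdia6 were mixed, and the difference went from -0.17 (95% interval -0.50 to 0.16) to -0.03 without that array. Calr encodes calreticulin, a lectin chaperone that holds glycoproteins while they fold and stores calcium. It measured 10.85, 10.84 and 11.35 in control and 10.69, 10.63 and 10.86 in miR-143DOX. The groups overlapped only through the highest miR-143DOX sample, and the difference of -0.29 (95% interval -0.64 to 0.07) was -0.12 without control replicate 3.

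**Figure D3:**
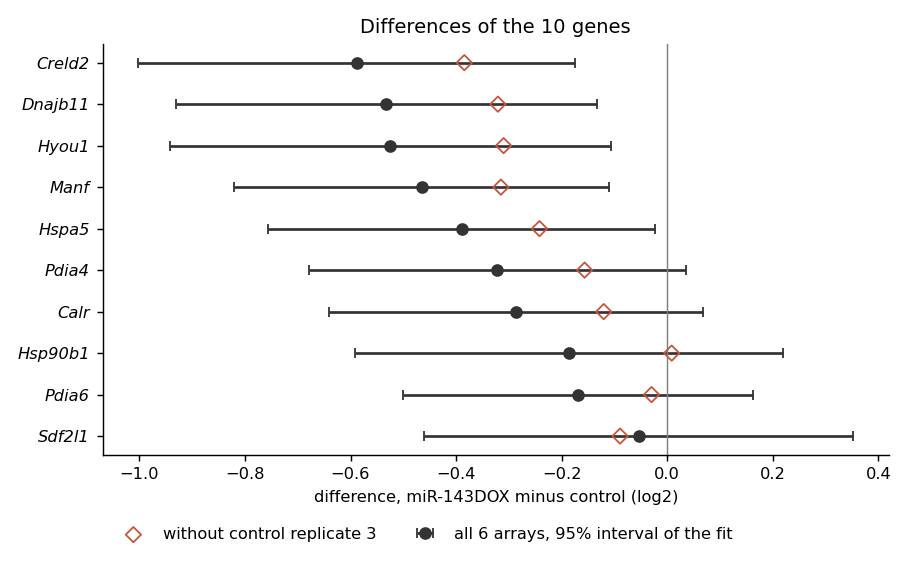
Difference of each gene between miR-143DOX and control (log2, filled circles, with 95% intervals of the limma fit over 6 arrays) and the same without control replicate 3 (open diamonds); the grey line marks 0. The intervals of Creld2, Dnajb11, Hyou1, Manf and Hspa5 lie below 0, and 9 of the 10 diamonds lie closer to 0 than the filled circles, with Hsp90b1 at 0.0084.

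Control replicate 3 exceeded the mean of the other controls by 0.50 in the median gene of the 10, with a range from -0.11 for Sdf2l1 to 0.65 for Hyou1. Over all genes tested the same median was -0.05. The controls spanned more than the miR-143DOX samples in 9 of the 10 genes, with a median range of 0.52 against 0.33. For all genes tested these ranges were 0.30 and 0.32. The miR-143DOX mean lay below that of control replicates 1 and 2 in 9 of the 10 genes, and no share over all genes was computed for this count. These differences ran from -0.38 for Creld2 to 0.0084 for Hsp90b1, with a median of -0.20 against -0.01 over all genes tested. At the other end, miR-143DOX replicate 2 was the lowest array in 7 of the 10 genes, a count for which no share over all genes was computed. The count of genes at an unadjusted p under 0.05 was 5 with all arrays, 1 when control replicate 3 was left out and 1 when miR-143DOX replicate 2 was, Creld2 both times.

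The genes followed each other across the arrays. Of their 45 pairs, 41 had a Pearson r above 0 over the 6 arrays, with a median of 0.85, and 39 had one with the group means subtracted, with a median of 0.76. These are descriptions: the points are the same 6 arrays for each pair, and control replicate 3 is an extreme point in most of them. The tested genes outside the 10 with the pattern most like their mean, of 13502 searched, were Rtp3, Hspa1a, Casc3, Zmym1, Pcdhb11 and Narg1l, at r of 0.98 each over 6 arrays. Hspa1a, the inducible cytosolic Hsp70, measured 6.71, 6.56 and 7.59 in control and 6.00, 5.96 and 6.14 in miR-143DOX, and its groups were separate. It was read by 1 probe set, and it has a near-identical copy whose transcripts that probe set may read as well. With the group means subtracted, the most similar genes were Fdxacb1, Tor3a, Dab2, Glce, Gusb and Recql, at r of 0.988 to 0.999. Between so many genes and so few arrays high values are common, and no p is given.

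Individual probe sets were examined for the evenness of the difference within each gene, without use of their position along the transcript. Of the 126 probe sets of the 10 genes, 119 (94.4%) lay lower in miR-143DOX, against 49.3% of all probe sets with 1 symbol. In 29 (23%) each miR-143DOX sample was below each control sample, against 4.57%. Of these 29, Hyou1 held 11, Creld2 7, Dnajb11 5, Hspa5 and Pdia4 2 each, and Manf and Calr 1 each. Hsp90b1, Pdia6 and Sdf2l1 held 0. No probe set of the 10 genes was separate in the other direction. In Creld2, Dnajb11, Hyou1, Hspa5 and Pdia4 each probe set lay below 0. Hyou1 had the widest spread, from -1.72 to -0.04 over 28 probe sets, and its lowest probe set measured 7.13, 7.69 and 8.92 in control and 5.69, 5.90 and 6.98 in miR-143DOX. In 9 of the 10 genes the brighter probe sets lay nearer 0 on average than the dimmer ones, split at the middle rank, with a median of -0.29 against -0.46. Hspa5 stood at -0.26 in its brighter probe sets and -0.51 in its dimmer ones. The exception in this order was Sdf2l1. Probe sets of 1 gene read the same RNA and are not replicates, and the part of signal brightness in this order was not tested.

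**Figure D4:**
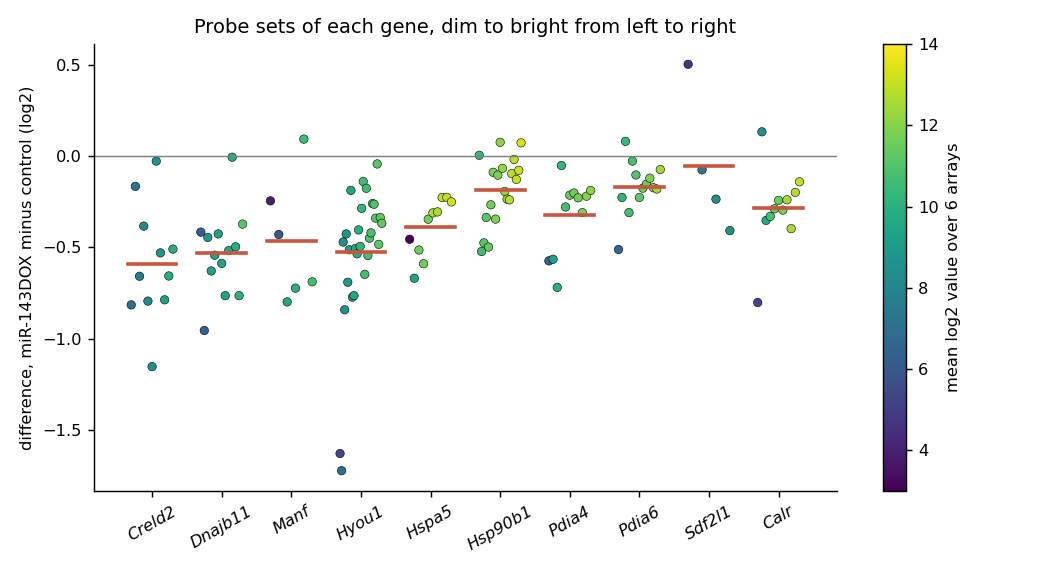
Difference between miR-143DOX and control (log2) for each of the 126 probe sets, ordered from dim to bright within each gene and coloured by mean log2 value; red bars are the mean over the probe sets. Most points lie below 0, and the bright (yellow) probe sets of Hspa5, Hsp90b1 and Calr lie nearer to 0 than many of their dimmer ones.

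Other genes of the folding pathway were taken from a written list of 30, with oxidases, further isomerases, glycan-trimming enzymes and lectin chaperones. Of these, 28 lay below 0 and 2 above, whereas 47.6% of all genes tested lay below 0. The median was -0.16 against 0.0083 for all genes tested. In limma, 2 of the 30 lay lower with an unadjusted p under 0.05, against 1.68% of the tested genes as a whole. Of the 30, 0 passed 5% FDR. Pdia5, another disulfide isomerase, measured 9.49, 8.99 and 9.49 in control and 8.66, 8.62 and 9.17 in miR-143DOX. One miR-143DOX sample reached into the control range, and the difference was -0.51 (standard error 0.19). Dnajc1, a membrane-bound co-chaperone, differed by -0.36 (standard error 0.15), Ero1l, the oxidase that recharges the isomerases, by -0.30 (0.15), and Dnajb9, a co-chaperone induced by XBP1, by -0.38 (0.23). When a gene was read by its brightest probe set alone, 20 of the 30 lay below 0 and the median was -0.05, while without control replicate 3 it was -0.13, with 24 below 0.

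Genes of endoplasmic reticulum-associated degradation, which retrieve misfolded proteins for the proteasome, lay below 0 in 15 of 15, with a median of -0.14. For comparison with this list and the next, 47.6% of all genes tested lay below 0. At an unadjusted p under 0.05 in limma, 1.68% of all genes tested lay lower. The ubiquitin ligase gene Syvn1 differed by -0.41 (standard error 0.21), the stress-induced Herpud1 by -0.34 (0.19), and Sel1l, the partner of Syvn1, by -0.25 (0.16). Erlec1, a lectin of this pathway listed under an older name, differed by -0.37 (0.16) and was the 1 gene of the list at an unadjusted p under 0.05. Read by the brightest probe sets alone, 10 of the 15 lay below 0, with a median of -0.10. Genes of the translocation channel, the signal peptidase and the oligosaccharyltransferase lay below 0 in 20 of 23, with a median of -0.12. Spcs3 differed by -0.41 (standard error 0.17) and was the 1 gene of this list at an unadjusted p under 0.05, beside Spcs1 at -0.40 (0.20), Srprb at -0.29 (0.14) and Rpn1 at -0.26 (0.14). Read by the brightest probe sets alone, 14 of the 23 lay below 0, with a median of -0.07, and 16 of the 23 did when control replicate 3 was left out. No gene of either list passed 5% FDR.

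The sensors and transcription factors of the response had a median of -0.08, with 11 of 14 below 0, against 47.6% of all genes tested. Read by their brightest probe sets alone, they had a median of 0.07, with 4 below 0. With 1 array left out, the median ran from -0.16 (miR-143DOX replicate 3 left out) to -0.02 (miR-143DOX replicate 1 left out), and it was -0.03 with control replicate 3 left out and -0.04 with miR-143DOX replicate 2 left out. Xbp1, the factor spliced by IRE1, measured 9.56, 9.32 and 9.58 in control and 9.23, 9.43 and 9.72 in miR-143DOX. Those groups were fully mixed, at a difference of -0.03 (95% interval -0.37 to 0.31), and the splicing of Xbp1 was not measured by this value. Atf6 measured 9.53, 9.53 and 9.55 in control and 9.12, 9.45 and 9.46 in miR-143DOX, so its groups were separate at a difference of -0.19 (standard error 0.14). Ern1, which encodes IRE1, differed by -0.28 (0.22), Ddit3, the stress factor CHOP, by -0.33 (0.16), and the pseudokinase Trib3 by 0.34 (0.18). No gene of this list was at an unadjusted p under 0.05.

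A further list held heat shock chaperones that work outside the endoplasmic reticulum, mostly in the cytosol, with Hspd1 and Hspe1 of the mitochondria. It lay below 0 in 16 of 16, against 47.6% of all genes tested, with a median of -0.16. Hspd1 stood at -0.00025. Hspa1a differed by -0.92 (standard error 0.23; unadjusted p = 0.00168; adjusted p = 0.9997, limma), Dnaja1 by -0.40 (0.17), Hsph1 by -0.50 (0.24) and Hspa8 by -0.35 (0.18). Control replicate 3 was the highest array for this list as well, with a mean deviation of 0.38, compared with 0.49 for the 10 chaperone genes of the endoplasmic reticulum. Without that array 12 of the 16 lay below 0, with a median of -0.08. The median was -0.10 with miR-143DOX replicate 2 left out, -0.24 with control replicate 2 left out, and -0.07 over the 15 genes tested by their brightest probe sets alone.

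**Figure D5:**
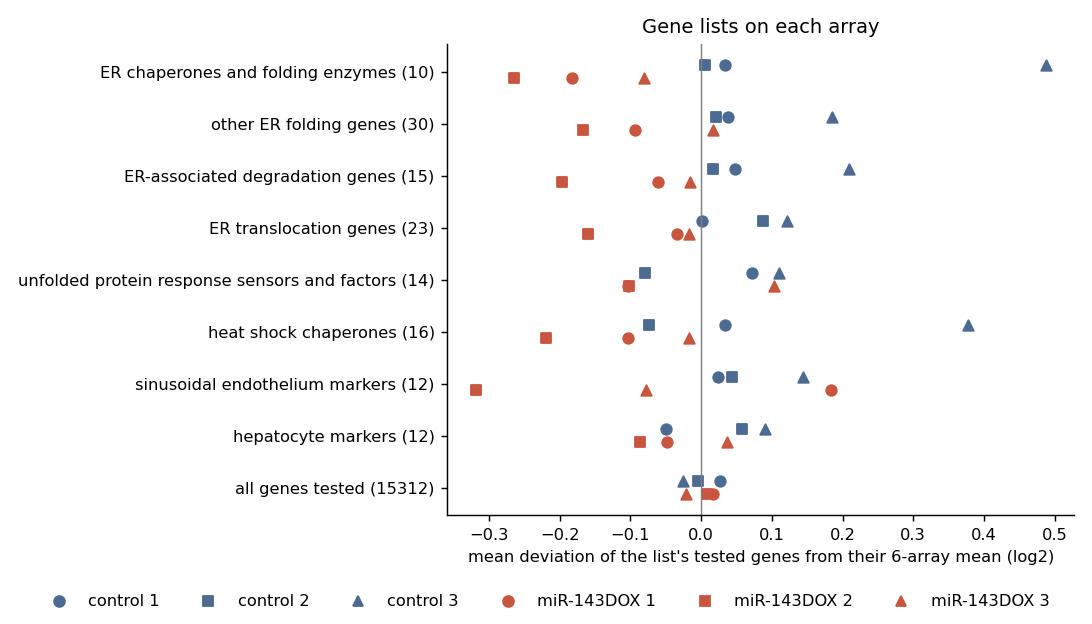
Mean deviation of each gene list from its mean over the 6 arrays (log2), with control arrays in blue, miR-143DOX arrays in red and the replicate number as the marker shape; the number of tested genes stands in brackets. Control replicate 3 lies at 0.49 for the 10 chaperones and folding enzymes and at 0.38 for heat shock chaperones, and all genes tested lie within 0.03 of 0.

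On the single arrays the mean deviation of the 10 genes was 0.03, 0.01 and 0.49 in control replicates 1, 2 and 3 and -0.18, -0.26 and -0.08 in miR-143DOX replicates 1, 2 and 3. Markers of other liver cells were measured beside it. Of 12 markers of sinusoidal endothelium 11 lay below 0, against 47.6% of all genes tested, with a median of -0.12. Their mean level was log2 7.48 to 7.60 in control and 7.13 to 7.64 in miR-143DOX. The endothelial level was highest in miR-143DOX replicate 1, where the 10 genes stood at -0.18. It was lowest in miR-143DOX replicate 2, where the 10 genes stood at -0.26 and were lowest as well. Hepatocyte markers had a median of 0.01, with 4 of 12 below 0, Serpina1a lowest at -0.98 (1 probe set), and a mean level of log2 12.35 to 12.49 in control and 12.31 to 12.43 in miR-143DOX. Kupffer cell markers had a median of 0.06 (4 of 12 below 0), at 7.07 to 7.16 in control and 6.97 to 7.30 in miR-143DOX, and stellate cell and fibroblast markers a median of 0.03 (5 of 12 below 0), at 6.86 to 6.93 in control and 6.81 to 7.09 in miR-143DOX. B and plasma cell markers had a median of 0.08 over the 6 tested (2 of 6 below 0), at 6.13 to 6.24 in control and 6.12 to 6.29 in miR-143DOX, and the other 5 of the 11 found lay under the level of log2 5.06 below which genes were not tested. Cholangiocyte markers had a median of 0.01 over the 5 tested (2 below 0 and 3 above), with Spp1 lowest at -0.32. T and NK cell markers had a median of 0.05 over the 4 tested (1 of 4 below 0). Neutrophil markers had one of 0.03 over the 2 tested (0 of 2 below 0). The part of all these markers, and of heat shock gene levels, in the differences of the 10 genes was not tested.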

How the data were processed

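The authors deposited 1 table of processed log2 values for 234873 probe sets on 6 arrays. The unit is inferred from the values (1.60 to 15.2). The submitters' processing notes name Partek and no version. Background correction, normalization, summary and genome build are not given in the sources used here. Between arrays, the largest gap in the 5th to 95th percentiles was 0.135, above a limit of 0.1, so values were quantile normalized. A gene was the mean of probe sets annotated to it alone, and the lowest 25% of genes (mean under log2 5.06, 5104 genes) were left out. All 10 genes passed, the dimmest at 7.36. No detection call was used. Precision is limited by the small number of arrays.

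The test was limma's moderated one (version 3.58.1, R 4.3.3), two-sided, with the group as its only term and p-values adjusted by Benjamini-Hochberg across 15312 genes. The steps were tested on simulated data. The genes and lists were chosen with earlier results of these data known. Of 202 list entries, 10 were not used and 5 were found under another symbol. Named genes are the 10, up to 4 per pathway list by smallest unadjusted p, the 6 most similar by each measure, and Alb, Xbp1 and Osbpl8; list genes named for an ERSE, as cell markers or as mitochondrial were picked after their values were seen. Alternatives were the deposited values, median centring, no or a stricter filter, the median or brightest probe set, a replicate block, array weights, a robust prior fitted with an intensity trend, and leaving out single arrays. Promoters were searched with Python 3.11.15.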

Additional observations from a re-analysis of the deposited data

How the results depend on the processing

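Over 15 other settings, 0 genes passed 5% FDR in any, and 9 or 10 of the 10 genes lay below 0 in each. Their median difference ran from -0.45, with control replicate 1 left out, to -0.20, with control replicate 3 left out, and with the replicate block it was -0.36. The count at an unadjusted p under 0.05, 5 with all arrays, was 3 with the median over probe sets, 1 with the brightest probe set and 1 to 7 with 1 array left out. The cause was not tested. Of 150 differences of single genes, 4 turned their sign. Hsp90b1 stood at 0.073 with the brightest probe set and at -0.39 to 0.0084 with 1 array left out, and Sdf2l1 at -0.41 with the brightest probe set and at -0.17 to 0.14 with 1 array left out. Of 150 values of the other lists, 147 moved by less than the limits set for them and 3 by more, all with the brightest probe set. Those limits were wide: a fall from 28 to 20 of the 30 folding genes below 0, with the brightest probe set, was within them. The replicate numbers do not pair the samples by the labels. Same-numbered samples had correlations of their deviations of 0.11, 0.047 and 0.30, and differently numbered ones from -0.26 to 0.15. With the replicate block, 6 of the 10 genes were at an unadjusted p under 0.05 in limma. With 3 arrays a group, the median moderated SD of a gene was 0.18, which limits what can be told apart.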
